A study of Homo sapiens with 6 samples.

Results

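Heat shock proteins and their J-protein partners are the folding machinery of the cell, and the data described here are the mRNA levels of these genes in a triple-negative breast cancer line after knockdown of the long noncoding RNA MIR100HG. The genes were chosen by symbol: the HSPA (HSP70), HSPB (small heat shock protein), HSP90, HSPD1, HSPE1 and HSPH1 genes together with the DNAJA, DNAJB and DNAJC genes. This gave 73 of the 27745 genes in the count table, and 63 of them had enough counts to be tested. Of the 10 others, HSPB2, HSPB3 and DNAJC25-GNG10 had 0 counts in all 6 samples, and DNAJB5-DT, DNAJB7, DNAJB8, DNAJC12, DNAJC5B, DNAJC5G and HSPB7 had between 0 and 12 counts in any sample.

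RNA-seq was done on MDA-MB-231, an established mesenchymal-like cell line that lacks hormone receptors, after infection with lentiviruses that express short hairpin RNAs. The control hairpin, sh-TRC, was used for samples CTR1 and CTR2. Samples KD1-1 and KD1-2 carried sh-MIR100HG-1, 1 of 2 hairpins against MIR100HG, and the other hairpin, sh-MIR100HG-2, was in samples KD2-1 and KD2-2. Each group therefore had 2 samples of a single line. The study describes those of the knockdown groups as biological replicates. All 3 groups carried a hairpin and had been infected. No heat or other proteotoxic treatment is named in the labels.

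The 6 libraries held between 43804736 and 64588388 counts. Levels are given as CPM, the counts scaled to a common library size after TMM scaling, and levels of different genes are compared per kilobase of counted exon. MIR100HG itself was at 41.9 and 58.5 CPM in the sh-TRC samples and between 10.4 and 16.6 CPM in the 4 knockdown samples, which did not overlap. The line's markers VIM (1607 to 2095 CPM), CD44, AXL and FOSL1 were high and PGR was at or near 0. ESR1, FOXA1 and PDGFRA were between 1.22 and 3.27 CPM in CTR2 and KD1-1 and between 0 and 0.59 CPM in the other 4 libraries. The part of this difference in the results was not tested. Values without CTR2 and without KD1-1 are given for the sh-MIR100HG-1 counts and for HSPA5, DNAJB9, HSP90B1, HSPH1, HSPB1 and DNAJC22.

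HSP70 proteins bind exposed hydrophobic stretches of client proteins in cycles of ATP hydrolysis, J proteins deliver clients and start that hydrolysis, and HSP90 acts later on a subset of clients such as kinases and steroid receptors. Small heat shock proteins hold unfolded proteins without using ATP. In the cytosol many of these genes are induced by the transcription factor HSF1, which binds inverted repeats of GAA (heat shock elements), whereas chaperones of the endoplasmic reticulum (ER) are induced by the unfolded protein response, whose factors ATF6 and XBP1 act through the ER stress response element and related sites.

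The promoters of a few members hold these 2 kinds of element and are printed because the members are described below by compartment. Most of those printed are ER or cytosolic members, and HSPD1 is a mitochondrial one. Promoter sequences came from the RefSeq promoter table (GRCh38.p14), and each printed window of 30 bases was placed on GRCh37, the build of the counts, by an exact match. Capitals mark the matched element, and all sequences read 5′ to 3′ on the strand of the gene. An ER stress response element (CCAAT, 9 bases of any kind and CCACG, on either strand) was found within 250 bases upstream of the start in HSPA5, at chr9:128003664-128003693 on the minus strand, and in HSP90B1, at chr12:104323989-104324018 on the plus strand.
HSPA5: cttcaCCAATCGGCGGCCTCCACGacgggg
HSP90B1: cctgaCCAATCGGAAGGAGCCACGcttcgg
DNAJC10 held a match to TGACGTGG, the site bound by XBP1 and ATF6, on the other strand of the gene at chr2:183580848-183580877.
DNAJC10: cgcgcacaccgCCACGTCAacctaaaccta
The heat shock element of 3 units (GAA, TTC and GAA or TTC, GAA and TTC, each 2 bases apart) was found in HSPA6 at chr1:161494248-161494277 (plus strand), HSP90AA1 at chr14:102553448-102553477 (minus strand), HSP90AB1 at chr6:44215560-44215589 (plus strand), HSPD1 at chr2:198364783-198364812 (minus strand) and DNAJB6.
HSPA6: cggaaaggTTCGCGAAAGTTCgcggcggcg
HSP90AA1: gagggttcTTCCGGAAGGTTCgggaggctt
HSP90AB1: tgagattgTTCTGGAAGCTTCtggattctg
HSPD1: attttctgGAAAGTTCTGGAAccgagcgag
The shorter element of 2 units (GAANNTTC or TTCNNGAA) occurs inside every 3-unit match as well as alone, as in HSPA1A at chr6:31783203-31783232, HSPA1B at chr6:31795399-31795428 (both plus strand) and DNAJB1 at chr19:14629268-14629297 (minus strand).
HSPA1A: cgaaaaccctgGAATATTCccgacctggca
HSPA1B: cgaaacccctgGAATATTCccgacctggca
DNAJB1: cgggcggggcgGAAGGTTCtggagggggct
The HSPA1A window is also the upstream window of HSPA1L, which is read from the opposite strand.

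The share of members with an element was set beside that of all promoters. Of 35116 promoters searched, 155 (0.441%) held the 3-unit heat shock element, against 5 of the 85 promoters (5.88%) listed for 66 members. The 2-unit form was in 4067 promoters (11.6%) and in 19 member promoters (22.4%). The ER stress response element was in 26 promoters (0.074%), and 2 of these belonged to members. TGACGTGG was in 215 promoters (0.612%) and in 1 member promoter. A match is a description of the letters in the window and was not tested as a binding site, and 7 members had no promoter in the table.

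The 73 genes took between 0.90% and 1.18% of all counts, and HSPA5, HSP90AA1, HSP90AB1 and HSP90B1 together made up between 53.8% and 62.5% of that share. HSP90AB1, the constitutive cytosolic HSP90, had the highest mean level per length at 589.7 CPM per kilobase, with a range of 510.1 to 738.1 over the 6 samples. HSPA5, the HSP70 of the ER known as BiP, followed at 492.7 but ranged from 303.2 to 850.7, so these 2 genes overlapped. HSP90AA1, the stress-inducible cytosolic HSP90, came next at 260.5 CPM per kilobase and stayed below every sample of HSPA5 and HSP90AB1.

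HSP90B1, the HSP90 of the ER known as GRP94, at 160.4 CPM per kilobase, and HSPB1, the small heat shock protein HSP27, at 153.8, overlapped in range. The stress-inducible HSPA1B stood at 47.51 CPM per kilobase and HSPA1A at 16.47, while HSPA6, an HSP70 with little expression in unstressed cells, had between 1.63 and 5.01 CPM. The lowest tested members were HSPB6, HSPB9 and DNAJA4, which were all under 0.5 CPM in every sample. Levels of different members therefore spanned several orders of magnitude.

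**Figure D1:**
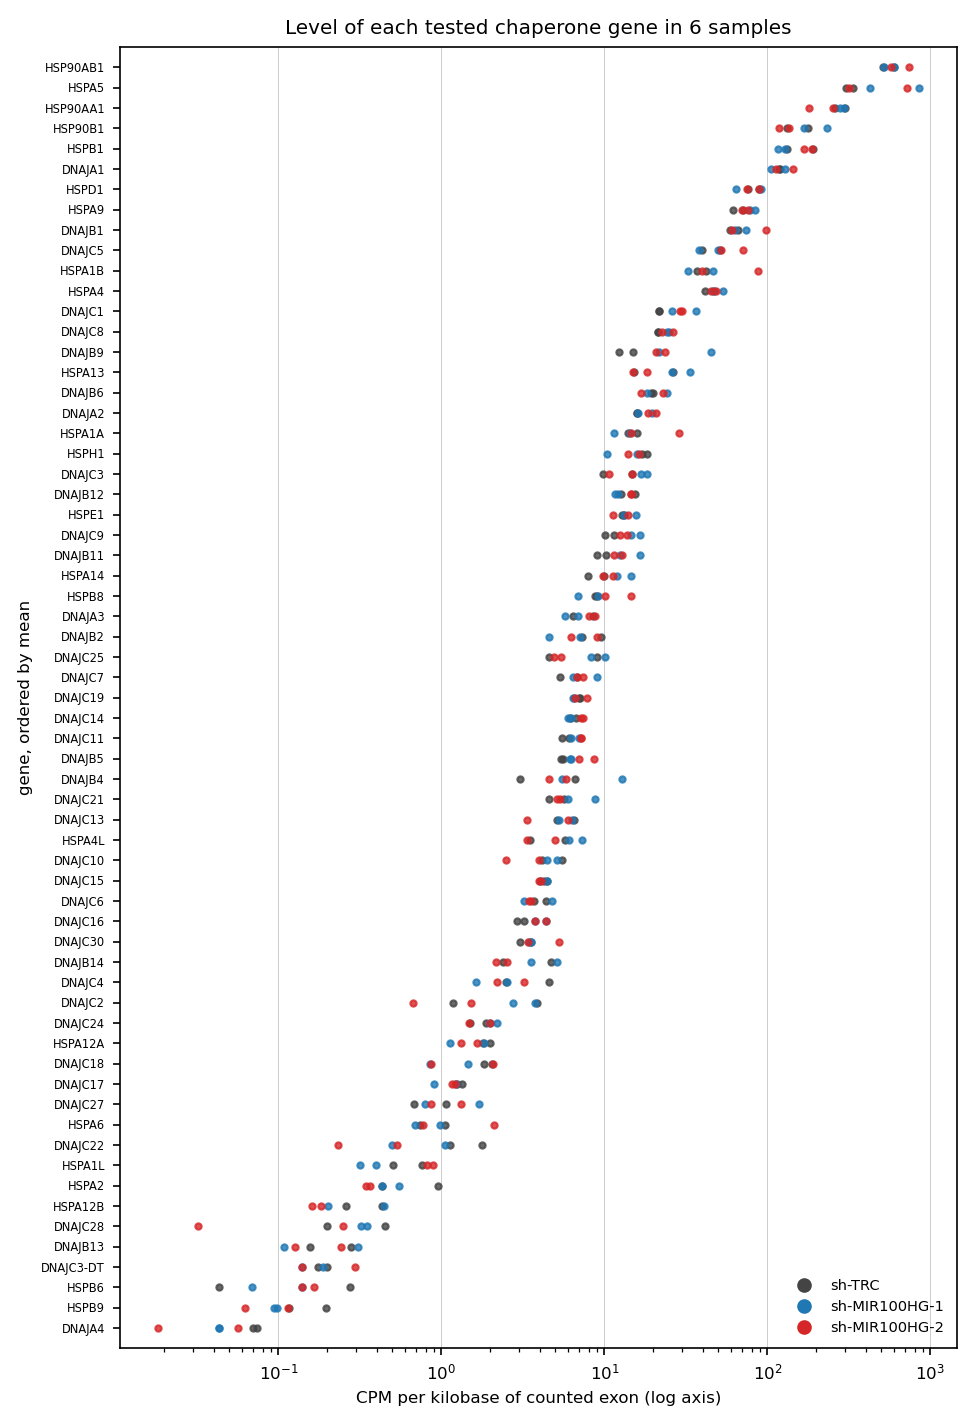
Level of each of the 63 tested genes as CPM per kilobase of counted exon (log axis), with 1 point per sample and colours for sh-TRC, sh-MIR100HG-1 and sh-MIR100HG-2. HSP90AB1 and HSPA5 lead the order at means of 589.7 and 492.7, and HSPB6, HSPB9 and DNAJA4 close it.

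Averaged over both hairpins, the genes with the largest positive log2 fold change (log2FC) against sh-TRC were the ER members DNAJB9 (1.0 ± 0.30 SE) and HSPA5 (0.85 ± 0.37 SE), and the most negative value was that of DNAJC22 (-1.40 ± 0.44 SE). No member passed edgeR's quasi-likelihood test after Benjamini-Hochberg adjustment over 15372 genes, at an adjusted p of 0.05 with or without a log2FC beyond 2, and neither did any other gene in that test (0.0% called). The smallest adjusted p of a member was 0.522. At an unadjusted p under 0.05 there were 3 members, DNAJB9 and DNAJC1 with higher levels and DNAJC22 with lower ones, which is 4.76% of those tested beside 7.68% of all genes (3.23% higher and 4.44% lower). In bulk samples, fewer cells of a kind and less RNA per cell cannot be told apart. DESeq2 also called 0 members in this comparison, while it called 130 genes in all, and it had 7 members and 1341 genes at an unadjusted p under 0.05.

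The count of called members depended on the filter. Without removing genes with low counts, edgeR called 3 members in this comparison, DNAJB9 (adjusted p = 0.0079), HSPA5 (adjusted p = 0.00296) and DNAJC22 (adjusted p = 0.00517), beside 392 genes in all. In 14 members the 4 knockdown samples did not overlap the 2 controls, 9 of them above and 5 below, beside 17.5% of all genes in either direction (8.4% above and 9.08% below). For a single gene the exact two-sided permutation test over the 15 ways of choosing 2 of 6 samples cannot give a p under 0.0667.

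As a whole the members were centred near 0. Their median log2FC was 0.05 against -0.04 for all genes tested, with 36 positive and 27 negative values, beside 45.6% positive and 54.4% negative among all genes. The 13 ER members had a median of 0.09, the 11 cytosolic HSP70 and HSP110 members 0.12, the 9 cytosolic J proteins of classes A and B 0.08, the 8 mitochondrial members 0.01, the 15 other class C J proteins 0.02 and the 4 small heat shock proteins -0.23. Replicates of the same group differed by more than 2-fold in at least 1 group for 15 members (23.81%), beside 3210 genes (20.88%) in all.

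**Figure D2:**
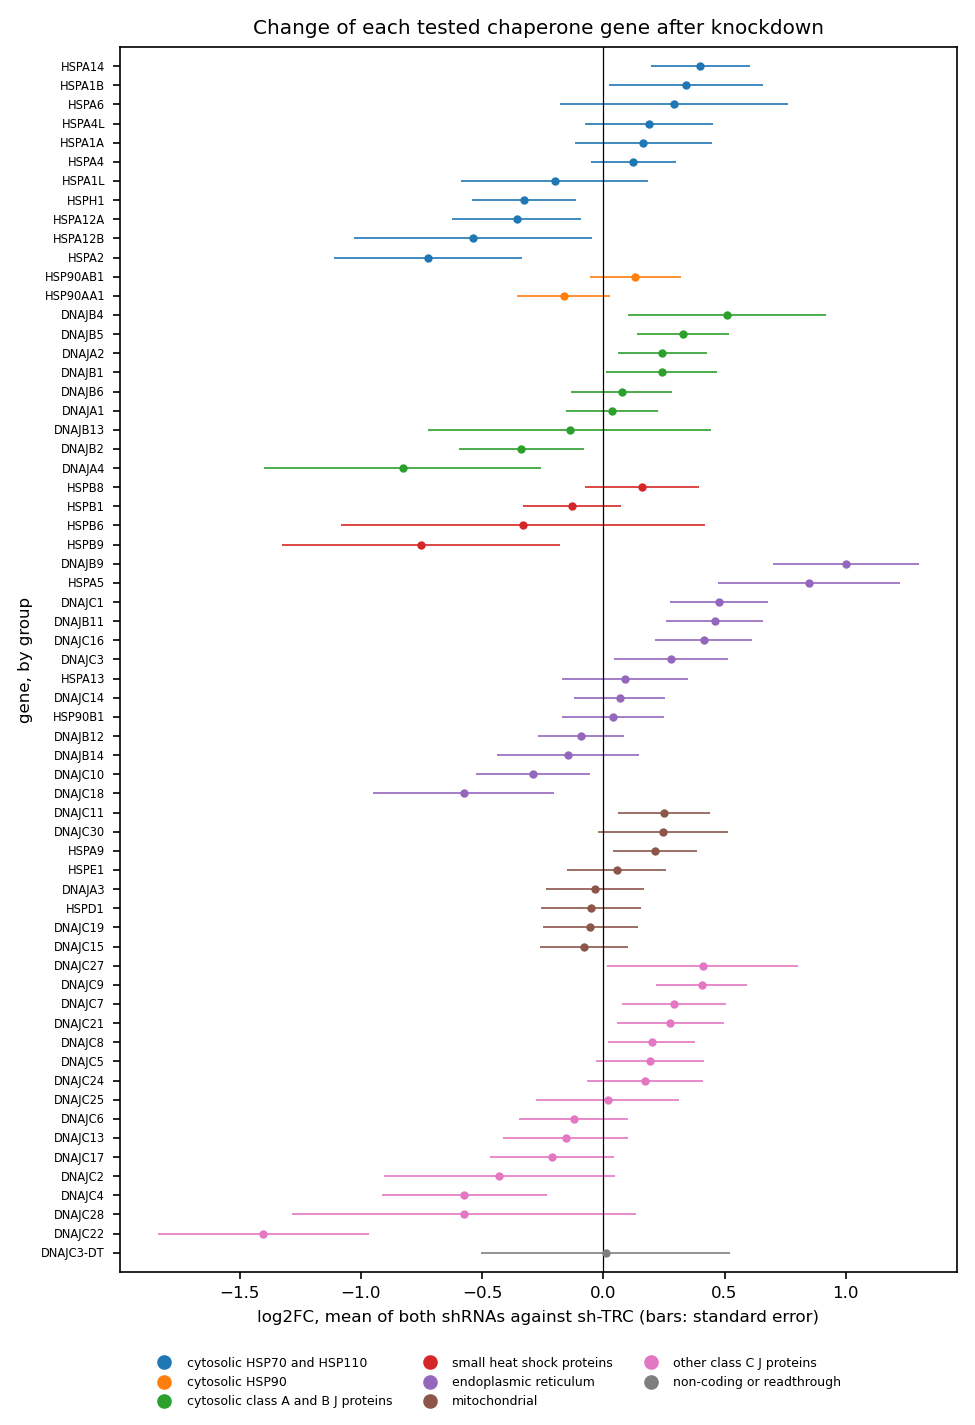
Log2FC of each tested gene, mean of both hairpins against sh-TRC, with bars for the standard error and colours for 8 groups of genes. DNAJB9 and HSPA5 lie farthest to the right at 1.0 and 0.85, and DNAJC22 farthest to the left at -1.40.

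Within the ER the members differed. HSPA5 lies at chr9:127997132-128003609 on the minus strand (GRCh37), and its protein holds the unfolded protein response sensors inactive when it is not needed for folding. It was at 1317 and 1185 CPM in the sh-TRC samples, 1672 and 3324 CPM with sh-MIR100HG-1, and 1239 and 2814 CPM with sh-MIR100HG-2. The second sample of each knockdown group was about 2-fold above the first (1.99-fold and 2.27-fold), and KD2-1 lay between the controls. HSPA5 accounted for 27.2% and 25.6% of the members' counts in KD1-2 and KD2-2, beside 13.3% to 17.5% in the other 4 samples.

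The log2FC of HSPA5 was 1.0 ± 0.42 (SE) with sh-MIR100HG-1 (edgeR adjusted p = 0.714) and 0.70 ± 0.42 with sh-MIR100HG-2 (edgeR adjusted p = 0.654). Both contrasts share the same 2 controls. Without KD2-2 the value for sh-MIR100HG-2 was -0.02, and without KD1-2 that for sh-MIR100HG-1 was 0.41, so the size of the difference rested on these libraries. For both hairpins together it was 0.49 without KD2-2, 0.56 without KD1-2, 0.77 without CTR2 and 1.05 without KD1-1. Of the words of 32 bases in its counted exons, 25% occur elsewhere in the genome, and how the counting treated such reads is not given in the sources used here.

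DNAJB9 (chr7:108210012-108215294, plus strand, GRCh37), a J protein of the ER lumen that is itself a target of the unfolded protein response, was at 42.4 and 34.7 CPM in the controls, 61.8 and 127.7 CPM with sh-MIR100HG-1, and 58.8 and 66.9 CPM with sh-MIR100HG-2. All 4 knockdown samples were above both controls, and KD1-2 was the highest. The mean was 38.5 ± 5.45 CPM (SD, n = 2) in sh-TRC, 94.7 ± 46.6 in sh-MIR100HG-1 and 62.8 ± 5.75 in sh-MIR100HG-2. Its log2FC was 1.30 ± 0.34 (SE) with sh-MIR100HG-1 (edgeR adjusted p = 0.714) and 0.71 ± 0.33 with sh-MIR100HG-2 (edgeR adjusted p = 0.580). Leaving out each library in turn kept the mean log2FC of both hairpins between 0.69 and 1.22, with 0.86 without CTR2 and 1.22 without KD1-1. With sh-MIR100HG-1 alone it was 0.67 without KD1-2.

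DNAJB11, a partner of HSPA5 in the ER lumen, was at 58.8 and 51.6 CPM in the controls, 71.5 and 94.9 CPM with sh-MIR100HG-1, and 73.1 and 65.4 CPM with sh-MIR100HG-2. DNAJC1, an ER membrane J protein, was at 54.3 and 54.4 CPM in the controls, 65.1 and 90.6 CPM with sh-MIR100HG-1, and 72.5 and 74.5 CPM with sh-MIR100HG-2. In both genes every knockdown sample was above every control, and the mean log2FC values were 0.46 ± 0.20 (SE) and 0.48 ± 0.20. Together with DNAJB9 and DNAJC16 they made 4 of 13 ER members above both controls, and 0 were below, beside 8.4% and 9.08% of all genes. Reads of DNAJB11 are less certain, since 14.5% of its exon length is overlapped by other genes.

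The other ER members did not share this pattern. HSP90B1, whose promoter holds the ER stress response element like that of HSPA5, was at 827 and 622 CPM in the controls, 789 and 1083 CPM with sh-MIR100HG-1, and 633 and 556 CPM with sh-MIR100HG-2. Its log2FC was 0.37 ± 0.24 (SE) with sh-MIR100HG-1, whereas sh-MIR100HG-2 gave -0.29 ± 0.24. Without CTR2 these were 0.18 and -0.48, and the first was 0.12 without KD1-2 and 0.58 without KD1-1. HSPA13, a microsomal HSP70, was at 111 and 63.6 CPM in the controls, 109 and 140 CPM with sh-MIR100HG-1, and 76.1 and 62.7 CPM with sh-MIR100HG-2. DNAJC3, an inhibitor of the eIF2 alpha kinases, was at 82.2 and 55.1, 93.9 and 102, and 82.1 and 59.8 CPM in the same order.

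DNAJC10, the disulfide reductase ERdj5, was at 120 and 90.1 CPM in the controls, 97.0 and 112 CPM with sh-MIR100HG-1, and 86.5 and 54.7 CPM with sh-MIR100HG-2. Over the 13 ER members sh-MIR100HG-1 gave a median log2FC of 0.41, beside -0.004 for all genes. The other hairpin gave 0.06, beside -0.04 for all genes. In the direct test between hairpins 0 of 13 passed (smallest edgeR adjusted p = 0.509), beside 0 of all 15372 genes. That count therefore cannot set the ER members apart from other genes. KD1-2 was the highest of the 6 samples in 9 of the 13 ER members, beside 19.4% of all genes tested. KD1-2 was the smallest library, with 43804736 counts, and the part of this in the pattern was not tested.

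**Figure D3:**
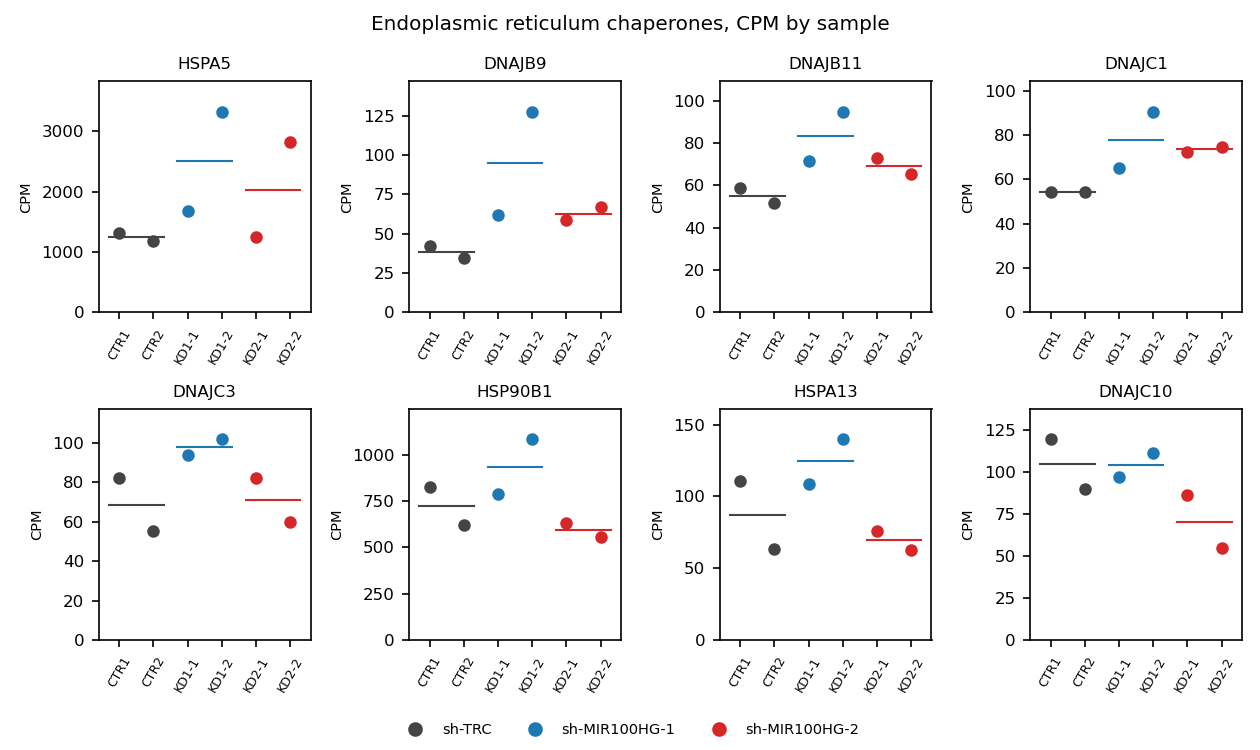
CPM of 8 ER chaperone genes in each of the 6 samples, with group means as lines and colours for sh-TRC, sh-MIR100HG-1 and sh-MIR100HG-2 (linear axes from 0). HSPA5 is high in KD1-2 and KD2-2 at 3324 and 2814 CPM, whereas HSP90B1 is high in KD1-2 at 1083 CPM and not in KD2-2 at 556 CPM.

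The wider ER folding list gave a similar spread. Of its 12 genes, 10 had a positive mean log2FC, beside 45.6% of all genes. The median was 0.21, and 1 (8.33%) was at an unadjusted p under 0.05, beside 7.68% of all genes. HERPUD1, an ER-associated degradation factor, was at 55.7 and 44.1 CPM in the controls, 73.8 and 142 CPM with sh-MIR100HG-1, and 44.2 and 147 CPM with sh-MIR100HG-2. SDF2L1, a partner of DNAJB9 and DNAJB11, was at 28.7 and 32.9, 38.3 and 60.4, and 33.1 and 71.8 CPM in the same order. As for HSPA5, the highest samples of both genes were KD1-2 and KD2-2. Over the list, 9 of 12 genes were higher in the second sample of both knockdown groups, beside 32.4% of all genes tested. EDEM1, which removes misfolded glycoproteins, was instead between 145 and 170 CPM in all knockdown samples and at 117 and 114 CPM in the controls, and had the lowest unadjusted edgeR p of the list.

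Among the 10 cytosolic stress-inducible genes listed, KD2-2 was the highest sample in 5 and KD1-1 the lowest in 6, beside 3195 and 1857 of all 15372 genes. KD2-2 was the lowest in 2, HSP90AA1 and HSPA4L, beside 3750 of all genes. HSPA1B, the major inducible HSP70, was at 93.0 and 106 CPM in the controls, 82.7 and 116 CPM with sh-MIR100HG-1, and 100 and 220 CPM with sh-MIR100HG-2. HSPA1A followed it at 34.8 and 39.3, 28.6 and 35.9, and 36.1 and 70.9 CPM. KD2-2 was thus the highest sample of both genes, which share 74.1% of the 32-base words of HSPA1A, so their reads are uncertain between them. The ratio of HSPA1A to HSPA1B per kilobase was between 0.31 and 0.38 in all samples.

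The same library was highest for HSPA6 at 5.01 CPM (1.63 to 2.5 in the others), for DNAJB1, the main J partner of inducible HSP70, at 359 CPM (217 to 272), and for HSPB8, the small heat shock partner of BAG3, at 41.7 CPM (19.6 to 28.8). Over all genes tested, KD2-2 was the highest sample in 20.8%. The replicate KD2-1 was within or near the range of the controls in these 5 genes. Without KD2-2 the log2FC of HSPA1B was -0.005 for the mean of both hairpins and 0.00 for sh-MIR100HG-2, where it had been 0.34 ± 0.32 (SE) and 0.69 ± 0.36. Of the 32-base words of HSPA6, 67.7% occur elsewhere in the genome, so its reads are uncertain too.

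HSPH1, an HSP110 that recharges HSP70 with ATP, was at 144 and 154 CPM in the controls, 87.6 and 134 CPM with sh-MIR100HG-1, and 117 and 136 CPM with sh-MIR100HG-2, with every knockdown sample below both controls. Its mean log2FC was -0.33 ± 0.21 (SE) with an edgeR adjusted p of 0.757. Of the 10 inducible genes listed, this 1 had knockdown and control samples that did not overlap (10%), beside 17.5% of all genes. Without KD1-1 the log2FC of HSPH1 was -0.19, and without CTR2 it was -0.28. DNAJA1 (287 to 392 CPM), HSPA4L (39.0 to 84.4 CPM) and the constitutive HSPA4 (214 to 276 CPM), DNAJA2 (79.8 to 105 CPM), HSPA14 (34.0 to 62.5 CPM) and DNAJC7 (50.0 to 84.0 CPM) had mean log2FC values between 0.04 and 0.40. Of these, DNAJA2 was above both controls in all 4 knockdown samples.

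The cytosolic HSP90 genes differed in opposite directions in KD2-2. HSP90AA1 was at 1562 and 1364 CPM in the controls, 1546 and 1458 CPM with sh-MIR100HG-1, and 1321 and 950 CPM with sh-MIR100HG-2. HSP90AB1 was at 1520 and 1778, 1553 and 1781, and 1713 and 2199 CPM in the same order. The ratio of HSP90AA1 to HSP90AB1 per kilobase was 0.25 in KD2-2 and between 0.44 and 0.58 in the other 5 samples. The mean log2FC values of -0.16 ± 0.19 (SE) and 0.13 ± 0.19 had adjusted edgeR p-values of 0.882 and 0.905. Between 32.2% and 37.9% of the 32-base words of these genes occur elsewhere in the genome.

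**Figure D4:**
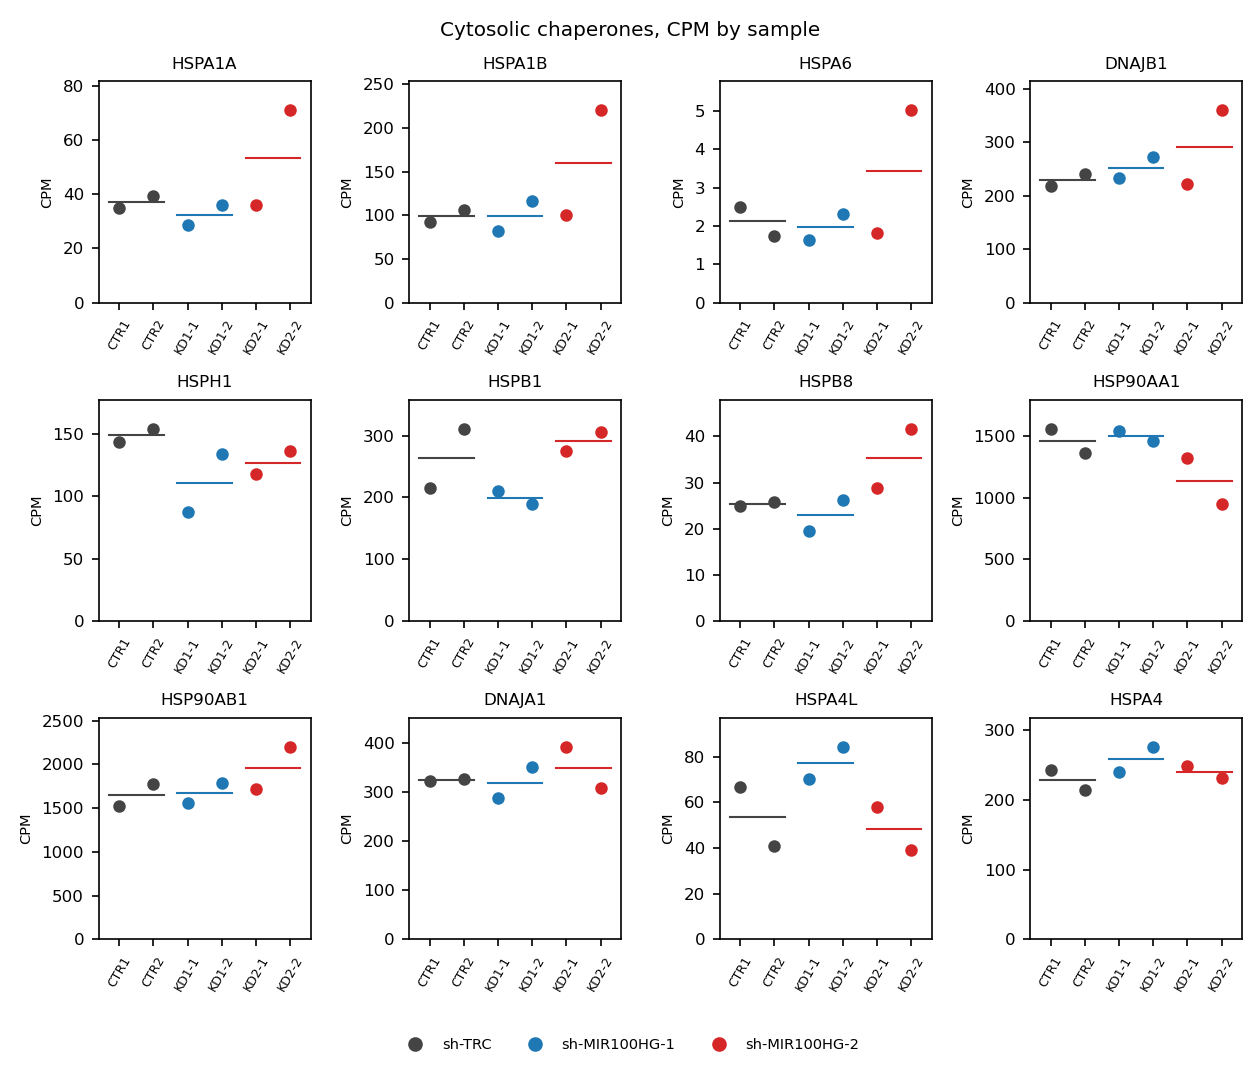
CPM of 12 cytosolic chaperone genes in each of the 6 samples, with group means as lines and colours for the 3 groups (linear axes from 0). KD2-2 is the highest sample for HSPA1A, HSPA1B, HSPA6, DNAJB1, HSPB8 and HSP90AB1 and the lowest for HSP90AA1 and HSPA4L. HSPH1 is below both controls in all 4 knockdown samples.

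Holding a heat shock element went with no common direction. The 5 members with a 3-unit element had log2FC values from -0.16 to 0.29, with a median of 0.08. Of the 17 tested members with a 2-unit element, 10 had a positive and 7 a negative value, again with a median of 0.08, and 1 member, DNAJA4 (5.88%), did not overlap between knockdown and control samples, beside 17.5% of all genes. HSF1, the regulator itself, was at 111 and 145 CPM in the controls, 118 and 124 CPM with sh-MIR100HG-1, and 166 and 198 CPM with sh-MIR100HG-2. Of the 4 genes listed as HSF regulators (HSF1, HSF2, HSF4 and HSBP1), 2 had a positive and 2 a negative log2FC for the mean of both hairpins, from -0.72 to 0.21. At an unadjusted edgeR p under 0.05 there were 0 of them, beside 7.68% of all genes. With sh-MIR100HG-1 there were also 0, beside 6.87% of all genes, and 1 value was positive and 3 negative. With sh-MIR100HG-2, 1 had a positive log2FC and 3 a negative one. These values ranged from -1.34 to 0.51, and 1 gene was lower at an unadjusted edgeR p under 0.05, beside 5.15% of all genes. The promoter groups were drawn up after the values were known.

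Of the small heat shock proteins, 4 were tested and 0 passed in any comparison, beside 0.0% of all genes. HSPB1, which binds unfolded proteins, was at 216 and 311 CPM in the controls, 210 and 189 CPM with sh-MIR100HG-1, and 276 and 306 CPM with sh-MIR100HG-2. Both sh-MIR100HG-1 samples were below both controls, whereas those of sh-MIR100HG-2 lay between them. The direct comparison of sh-MIR100HG-2 with sh-MIR100HG-1 gave a log2FC of 0.54 ± 0.24 (SE, edgeR adjusted p = 0.526). Without CTR2 its log2FC with sh-MIR100HG-1 went from -0.40 to -0.11, and that of both hairpins together from -0.13 to 0.16. Without KD1-1 these were -0.48 and -0.17. HSPB6 and HSPB9 were too low, at 0.07 to 0.48 CPM, for a difference to be detectable at this depth. Of the alpha-crystallins, which belong to the same family, CRYAA was at 0 counts and CRYAB had at most 0.10 CPM.

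Mitochondrial chaperones varied little between samples. HSPA9, the mitochondrial HSP70 that pulls proteins through the inner membrane, ranged from 292.6 to 397 CPM, and HSPD1, the chaperonin HSP60, from 273 to 389 CPM. The log2FC of these members against sh-TRC lay between -0.08 and 0.25 for both hairpins together, with HSPA9 at 0.21 ± 0.17 (SE) and HSPD1 at -0.05 ± 0.21. HSPE1, the lid of HSP60, had 22.4 to 31.0 CPM, but 23.9% of its exon length is shared with other genes. DNAJA3 was at 40.7 to 61.6 CPM and DNAJC19, a subunit of the import motor, at 22.9 to 28.1 CPM. Of the 8 members, DNAJC11 alone (12.5%) did not overlap between knockdown and control samples, with the knockdown samples above, beside 17.5% of all genes.

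DNAJC22 (chr12:49740700-49751329, plus strand, GRCh37) had the lowest mean log2FC of the members tested. It is a class C J protein of membranes, and was at 8.82 and 5.62 CPM in the controls, 5.29 and 2.5 CPM with sh-MIR100HG-1, and 2.67 and 1.16 CPM with sh-MIR100HG-2. All 4 knockdown samples were below both controls, although KD1-1 was close to CTR2. Its log2FC was -0.89 ± 0.52 (SE) with sh-MIR100HG-1 (edgeR adjusted p = 0.749) and -1.92 ± 0.54 with sh-MIR100HG-2 (edgeR adjusted p = 0.498). Leaving out each library in turn gave values between -1.76 and -1.04 for both hairpins together. With sh-MIR100HG-1 alone the value was -0.46 without KD1-2, -0.53 without CTR1, -1.175 without CTR2 and -1.53 without KD1-1. DESeq2 called it in the comparison of sh-MIR100HG-2 with sh-TRC (DESeq2 adjusted p = 0.0333), where it called 167 genes in all.

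DNAJC2, which acts on nascent chains at the ribosome, varied between replicates. It was at 25.5 and 7.78 CPM in the controls, 24.7 and 18.0 CPM with sh-MIR100HG-1, and 9.94 and 4.38 CPM with sh-MIR100HG-2. The controls alone spanned more than 3-fold, and both sh-MIR100HG-2 samples lay below both sh-MIR100HG-1 samples. DNAJC9, a histone chaperone, was at 45.4 and 39.8 CPM in the controls, 57.2 and 65 CPM with sh-MIR100HG-1, and 49.5 and 54.7 CPM with sh-MIR100HG-2, so all knockdown samples were above both controls. Its exons are overlapped by other genes over 24.5% of their length. DNAJC4 had 4.56 to 12.9 CPM, DNAJB2 26.8 to 56.2 CPM and HSPA2 1.98 to 5.51 CPM, and the 4 knockdown samples together overlapped the controls in each. With sh-MIR100HG-1 alone both DNAJB2 samples were below the controls, and with sh-MIR100HG-2 alone both HSPA2 samples were.

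Each hairpin was also compared on its own, and both comparisons used the same controls. With sh-MIR100HG-1, 5 members were at an unadjusted p under 0.05, all higher (DNAJB9, DNAJB11, DNAJC9, HSPA14 and HSPA5), beside 6.87% of all genes in either direction and 3.1% higher. This is 7.94% of the members tested. With sh-MIR100HG-2 it was 1 member, DNAJC22 with a lower level, beside 8.86% of all genes in either direction and 5.15% lower. Knockdown and control samples did not overlap in 27 members with sh-MIR100HG-1 and in 26 with sh-MIR100HG-2, which is 42.9% and 41.3%, beside 40.5% and 38.5% of all genes. Without CTR2 the count of 5 members became 1, and that of all genes went from 1056 to 306. Without KD1-2 it was also 1 member, beside 434 genes, and without KD1-1 it was 9 members, beside 1252 genes. Without CTR1 it was 11 members, beside 1630 genes.

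The direct comparison of the hairpins gave 0 called members of 63 (0.0% of all genes called) and 7 at an unadjusted p under 0.05, which is 11.1% beside 9.45% of all genes. HSPA1L and HSPB1 were higher with sh-MIR100HG-2 (3.34% of all genes), and HSPA13, HSP90B1, DNAJB14, DNAJC2 and DNAJC25 were lower (6.12% of all genes). The hairpins' samples did not overlap in 28 members, beside 43.9% of all genes. The log2FC was -0.84 ± 0.30 (SE) for HSPA13 and -0.65 ± 0.24 for HSP90B1, both with an edgeR adjusted p of 0.509. ER members had a median of -0.30 in this comparison, with 10 of 13 negative beside 51.0% of all genes, whose median was -0.01. MIR100HG itself differed little between the hairpins, with a log2FC of -0.07.

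Averaged over both hairpins, most partners of the chaperones had slightly positive log2FC values, with few outside the spread. Of 13 HSP90 partners, 12 had a positive value for the mean of both hairpins, beside 45.6% of all genes. Their median was 0.22, and 1, CHORDC1 (7.69%), was at an unadjusted p under 0.05, beside 7.68% of all genes. By hairpin, the median was 0.04 with sh-MIR100HG-1 (8 of 13 positive) and 0.38 with sh-MIR100HG-2 (12 of 13 positive). For all genes these medians were -0.004 and -0.04. CTR1 was the lowest sample in 7 of the 13 and KD2-2 the highest in 7, beside 2185 and 3195 of 15372 genes. STIP1, which links HSP70 to HSP90, was at 250 and 357 CPM in the controls, 270 and 340 CPM with sh-MIR100HG-1, and 382 and 504 CPM with sh-MIR100HG-2. For the mean of both hairpins, 10 of 13 HSP70 partners were positive with a median of 0.22. BAG3, a stress-inducible nucleotide exchange factor, was highest in KD2-2 at 255.6 CPM beside 138 to 190 CPM in the other samples. All 8 subunits of the chaperonin TRiC had positive values with a median of 0.12, and 0 were at an unadjusted p under 0.05. Of the 6 prefoldin subunits, 3 were positive. No gene of these lists passed the adjusted threshold, beside 0.0% of all genes.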

How the data were processed

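RNA of MDA-MB-231 cells was sequenced in 6 samples, 2 for each of 3 hairpins. The authors mapped reads to GRCh37 with STAR (version 2.5.2a in the submitters' processing notes) and counted reads per gene with FeatureCounts on a GENCODE annotation. The deposited values are raw counts, not normalized. Strandedness and the treatment of reads with several matches are not given in the sources used here, so overlapping and paralogous genes are uncertain. All columns of the table were used.

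Gene identifiers were matched to symbols for 26966 of 27745 genes. Members and gene lists were chosen with earlier results of these data known. Members named with values were a list of roles, the 3 higher and 3 lower members with the smallest p in each comparison, and the members with the highest and lowest levels per length. Genes outside this rule named in the text, such as DNAJC16, DNAJC11, DNAJB14 and DNAJC25, and the promoter groups, were chosen after their values were seen. One HSP70 family gene is not reported here. Genes with under 5 counts in at least 3 samples were removed, which left 15372. Counts were fitted in edgeR 4.0.16 (R 4.3.3) with TMM scaling, 3 groups in 1 quasi-likelihood model (3 residual degrees of freedom, prior 5.37, common biological variation 27.8%), with Benjamini-Hochberg adjustment over all genes tested. Standard errors are the log2FC divided by the square root of the F statistic. DESeq2 1.42.0, another scaling, other tests, no filter, a replicate block and leaving out each sample were tried as alternatives. The fit was tested on simulated data. Total counts ranged from 43804736 to 64588388. Replicate pairs differed well beyond counting noise and were kept as separate samples. For sh-TRC nothing says that they came from separate cultures, so p-values may measure technical spread there.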

Additional observations from a re-analysis of the deposited data

Results flagged for a closer look

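HSPA1L, an HSP70 gene read from the strand opposite to HSPA1A, was flagged by the arrangement of its samples. Both sh-MIR100HG-1 samples were below both controls, and both sh-MIR100HG-2 samples were above them. Its level was 1.28 and 1.94 CPM in sh-TRC, 1.01 and 0.80 CPM with sh-MIR100HG-1, and 2.07 and 2.26 CPM with sh-MIR100HG-2. Set against the sh-MIR100HG-1 samples, those of sh-MIR100HG-2 gave a log2FC of 1.25 ± 0.46 (SE), and the direct test of this difference gave an adjusted p of 0.509 with edgeR's quasi-likelihood method, so it did not pass. It was the only member with this arrangement among the 63 tested. The share of all genes with it was not counted, so whether 1 member is more than usual cannot be told.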

How the results depend on the processing

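Of 2028 log2FC values of named members recomputed under 13 alternatives, 85 changed sign, all in values that had not passed the test, and 9 passed the adjusted threshold under an alternative. Called members were 0 in all 4 comparisons under the main settings, with RLE scaling, the bias-adjusted fit and the replicate block, where 0 of all genes were called too. The likelihood ratio test also called 0 members, but it called other genes. These were 109 (both hairpins), 34 (sh-MIR100HG-1), 121 (sh-MIR100HG-2) and 91 (between hairpins). Without the filter on low counts, where 21349 genes were fitted, called members were 3 for both hairpins against sh-TRC, beside 392 genes in all. For sh-MIR100HG-1 they were 2 (227 genes), and for sh-MIR100HG-2 they were 2, DNAJC22 and DNAJC2 (517 genes). Between the hairpins it was 1, DNAJC2 (679 genes). DESeq2 called 1 for sh-MIR100HG-2, beside 167 genes in all. The cause was not tested.

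Members at an unadjusted p under 0.05 were 3, 5, 1 and 7 (both hairpins, sh-MIR100HG-1, sh-MIR100HG-2, and between hairpins). In the same order, 1180, 1056, 1362 and 1453 of all 15372 genes were. RLE scaling gave 5 for both hairpins (1174 genes in all) and 2 for sh-MIR100HG-2 (1360 genes). The likelihood ratio test gave 2 for sh-MIR100HG-2 (1511 genes). No filter gave 8 for sh-MIR100HG-2 (2111 genes) and 14 between hairpins (2357 genes), of 21349 genes fitted. DESeq2 gave 7 for both hairpins (1341 genes) and 4 for sh-MIR100HG-2 (1563 genes). With single libraries left out, the counts of members moved, and so did those of all genes.

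The replicate numbers did not pair the controls with the knockdown samples. Deviations of same-numbered samples over all genes tested correlated at -0.21 between sh-TRC and sh-MIR100HG-1, and at 0.02 between sh-TRC and sh-MIR100HG-2. Between the hairpins they correlated at 0.50, so same-numbered knockdown samples tended to deviate in the same direction. With the replicate block, the counts of members at an unadjusted p under 0.05 were 4, 9, 6 and 15, beside 1580, 1421, 1826 and 2016 genes in all. A block with the control numbers crossed, chosen after seeing the data, gave 10, 11, 3 and 10, beside 1698, 1667, 1707 and 1865 genes.

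With 2 samples a group, differences below about the replicate spread were not detectable, and counting error weighs most for the tested members with the fewest counts, HSPB9, HSPB6 and DNAJA4 (means of 11.7, 13.0 and 17.8 counts per sample).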
